A study of Arabidopsis thaliana with 9 samples.

Results

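Roots of the Arabidopsis thaliana line labelled cngc19, a T-DNA knockout in the Col-0 background, were compared with roots of wild-type Col-0. The comparison takes 6 of the 9 Affymetrix ATH1 arrays of the series, 3 titled cngc19 and 3 titled Col-0, and the other 3 belong to cngc1-3, which is labelled as a T-DNA knockout in Col-0 as well. All lines were grown alike per the labels' protocols: plants were raised on agar until day 18 and in aerated nutrient solution for another 7 days, and 20 to 30 of them, at stage 3.90, gave the root material of 1 tube on day 25. The labels list no caesium treatment for these arrays, although the title of the series speaks of caesium toxicity. They do not name the T-DNA allele, and do not state whether the tubes of a line came from separate cultures, so the p-values cover only tube-to-tube spread, which may be technical.

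CNGC19 belongs to the cyclic nucleotide-gated channels, membrane proteins of plants that let cations such as calcium and potassium into the cell. Calmodulin and related calcium-binding proteins act on these channels and also read the calcium signals that the channels help to make. In leaves, CNGC19 is known for calcium signals after wounding and herbivore attack, and in roots its transcript is known to respond to salt. None of the 20 CNGC genes of the RefSeq gene table had a named probe set, so the targeted gene was not analysed here and the labels could not be checked through it. Values below are MAS5 signals as deposited, which are linear brightness values scaled per array, and fold changes are cngc19 minus Col-0 on the log2(signal + 16) scale.

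The 3 arrays of each line did not resemble each other equally. Over the 22746 probe sets that are not controls, cngc19 replicates 1 and 2 correlated with each other at r = 0.985, and cngc19 replicate 3 with them at 0.887 and 0.895. The array closest to cngc19 replicate 3 was Col-0 replicate 1, with r = 0.963, while Col-0 replicate 1 correlated with cngc19 replicates 1 and 2 at 0.907 and 0.914. With the 3 arrays of cngc1-3, cngc19 replicate 1 correlated at 0.975, 0.978 and 0.931 and cngc19 replicate 2 at 0.973, 0.98 and 0.933. For cngc19 replicate 3 these values were 0.89, 0.907 and 0.845. The profile of cngc19 replicates 1 and 2 was thus not limited to cngc19. Col-0 replicate 2 correlated with the other 5 arrays of the comparison at 0.308 or less, and Col-0 replicate 3 with the arrays other than Col-0 replicate 2 at 0.508 to 0.572. Relative to the median of the other 7 arrays, the ratio for hybridisation spike-in controls was 18.2 for Col-0 replicate 2 and 7.18 for replicate 3 of that line, against 0.914 to 1.42 on the other 4 arrays of the comparison. The 3' to 5' signal ratio of GAPDH, a measure of RNA integrity, was 35.2 on Col-0 replicate 3 and between 0.361 and 1.54 on the other 5. The same ratio of actin was 4.30 on Col-0 replicate 3, 0.536 on Col-0 replicate 2 and 13.7 on Col-0 replicate 1, and 12.6, 14.4 and 12.3 on the cngc19 arrays. The correlations run across probe sets, and probe sets are no independent replicates.

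**Figure D1:**
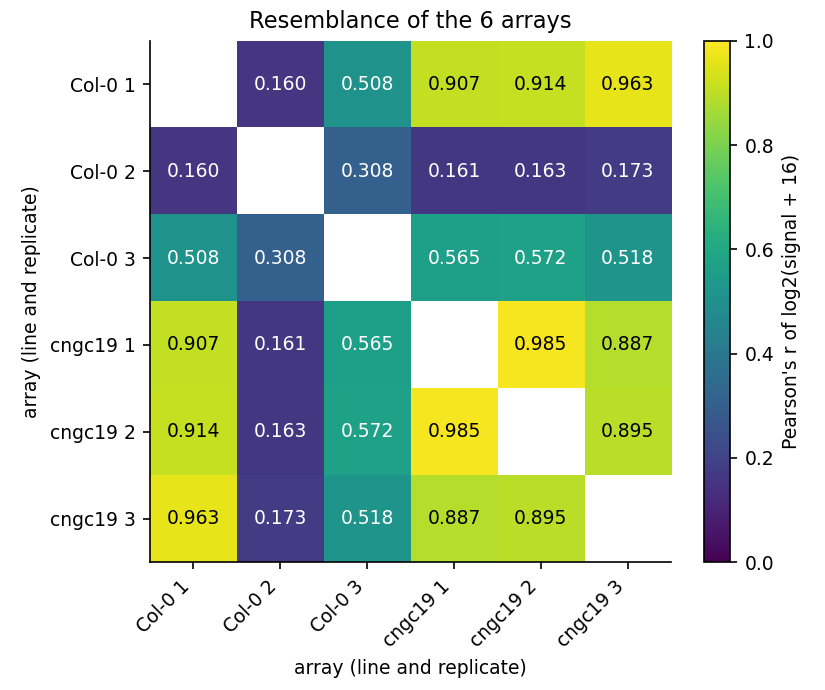
Pearson correlation of log2(signal + 16) over 22746 probe sets between each pair of the 6 arrays, on a colour scale from 0 to 1. Col-0 replicates 2 and 3 stand apart from all the others, and cngc19 replicate 3 has its highest value, 0.963, with Col-0 replicate 1.

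Markers of tissue also differed between the arrays, and the root markers PYK10 and EXPA7 did not follow the same order. PYK10, the abundant β-glucosidase of root ER bodies, was at 4398, 261 and 448 in Col-0 and at 5434, 4409 and 3762 in cngc19. EXPA7, an expansin of root hair cells, had 195, 318 and 28.6 in Col-0 and 80.3, 75.1 and 121 in cngc19. PYK10 was thus high on all cngc19 arrays and on Col-0 replicate 1, and low on Col-0 replicates 2 and 3. EXPA7 was instead highest on Col-0 replicate 2 and lowest on Col-0 replicate 3. The 22 nuclear photosynthesis genes, markers of green tissue, had a median signal of 1333 on Col-0 replicate 3 and of 159 on Col-0 replicate 2. That median was 18.5 for Col-0 replicate 1 and 23.3 for cngc19 replicate 3, and on cngc19 replicates 1 and 2 it was 107 and 95.3. What part these differences between arrays play in each result below was not tested.

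Because of this, the fold changes of named genes and the medians of gene groups are given in 4 comparisons: all 6 arrays; without cngc19 replicate 3; against Col-0 replicate 1 alone; and cngc19 replicates 1 and 2 against Col-0 replicate 1 alone. Where 4 values follow a gene or a group, they stand in that order, and the error after the first is its SE. In the last 2 comparisons the wild type is a lone array. Its spread is assumed to be that of the cngc19 arrays kept and of the 3 cngc1-3 arrays, with 4 and 3 residual degrees of freedom. On the cngc1-3 arrays the 3' to 5' ratio of GAPDH was 0.739, 0.620 and 13.5, and that of actin 11.3, 10.9 and 98.5. Differences between roots in signal cannot tell apart fewer cells of a type from less RNA per cell.

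No probe set passed the test with all 6 arrays. The limma fit called 0 of 22746 at a Benjamini-Hochberg adjusted p under 0.05, which is 0% in either direction; the smallest adjusted p was 0.248, and 4540 probe sets had an unadjusted p under 0.05. Without cngc19 replicate 3, 7 probe sets were called higher (0.0308%) and 0 lower (0%, limma), with 3283 at an unadjusted p under 0.05. Against Col-0 replicate 1 alone, limma called 0% higher and 0% lower, with a smallest adjusted p of 0.107 and 794 probe sets at an unadjusted p under 0.05. Between cngc19 replicates 1 and 2 and Col-0 replicate 1, limma called 214 probe sets higher (0.941%) and 325 lower (1.43%).

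Without a test, each cngc19 signal exceeded each Col-0 signal for 1059 probe sets (4.66%) and fell short of each for 2698 (11.9%). The median fold change of all probe sets was -0.38 with all 6 arrays, -0.44 without cngc19 replicate 3, -0.04 against Col-0 replicate 1 alone and -0.07 in the last comparison. Of all probe sets, 65.6%, 66.9%, 54.3% and 57.0% were lower in the 4 comparisons, so the counts and medians of gene groups are read against these shares and medians. Against Col-0 replicate 1 alone, the 3 cngc19 arrays lay above it for 4643 probe sets (20.4%) and below it for 5847 (25.7%).

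The 2 genes with the widest gap above Col-0 were AT5G38020 and AT5G37990. AT5G38020, of the SABATH methyltransferases, which methylate carboxyl groups of hormones and other small acids, had signals of 207, 279 and 109 in Col-0 and of 815, 833 and 793 in cngc19. Its relative AT5G37990 had 89.1, 12.9 and 15.4 in Col-0 and 463, 499 and 264 in cngc19. Every cngc19 array lay above every Col-0 array for both, replicate 3 included. The fold change of AT5G38020 was 2.04 ± 0.52, 2.06, 1.89 and 1.91, and that of AT5G37990 was 3.17 ± 0.53, 3.44, 1.96 and 2.24. AT5G37990 passed the test between cngc19 replicates 1 and 2 and Col-0 replicate 1 (limma, adjusted p = 0.0223), and AT5G38020 missed it there (adjusted p = 0.0518). The line cngc1-3 had 709, 498 and 965 for AT5G38020 and 354, 293 and 210 for AT5G37990, so neither level was found in cngc19 alone.

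Among the 12 genes of widest gap above Col-0 were also AT4G23680, AT2G18370 and AT3G58550. AT4G23680, of the Bet v 1-like family whose members bind small hydrophobic molecules, had 80.2, 9.70 and 244 in Col-0 against 622, 460 and 441 in cngc19. Its fold change was 2.59 ± 0.71, 2.68, 2.43 and 2.52, and it was called in the last comparison (limma, adjusted p = 0.0393). AT2G18370 and AT3G58550 belong to the lipid-transfer proteins, small secreted proteins that carry lipids to the cell surface. AT2G18370 had 342, 136 and 50.3 against 1303, 1057 and 561, and AT3G58550 had 343, 338 and 171 against 1329, 1207 and 564. On both, cngc19 replicate 3 lay between Col-0 replicate 1 and the other cngc19 arrays. In cngc1-3, AT4G23680 had 407, 316 and 709, AT2G18370 had 1527, 938 and 1352, and AT3G58550 had 1352, 913 and 1871. High levels of these genes were thus not found in cngc19 alone. Fold changes were 2.61 ± 0.67, 2.95, 1.38 and 1.73 for AT2G18370 and 1.78 ± 0.63, 2.16, 1.46 and 1.84 for AT3G58550, and neither was called in any of these comparisons.

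Other genes with all cngc19 arrays above all Col-0 arrays had moderate signals. AT1G24430, of the BAHD acyltransferases, which join acyl groups to plant metabolites, had 74.8, 41.3 and 14.0 in Col-0 and 242, 215 and 134 in cngc19. AT2G03200, of the aspartyl proteases, had 144, 30.1 and 14.4 against 326, 321 and 246. ATCES1, an alkaline ceramidase of sphingolipid breakdown, had 94.1, 9.40 and 7.09 against 167, 160 and 201. ATC, a relative of the flowering repressor TFL1, had 63.3, 53.3 and 17.7 against 133, 117 and 230, with cngc19 replicate 3 the highest array. AT2G18210, AT3G25640 and AT5G05670 completed the 12 genes of widest gap. Fold changes were 1.95 ± 0.47, 2.18, 1.19 and 1.43 for AT1G24430 and 2.36 ± 0.56, 2.48, 0.96 and 1.09 for AT2G03200. They were 2.25 ± 0.65, 2.16, 0.80 and 0.71 for ATCES1 and 1.57 ± 0.50, 1.3, 1.09 and 0.82 for ATC. For AT2G18210 they were 2.31 ± 0.54, 2.44, 1.15 and 1.28, for AT3G25640 1.84 ± 0.46, 2.21, 1.47 and 1.84, and for AT5G05670 1.05 ± 0.38, 1.05, 0.77 and 0.77. None of these 7 was called.

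The 12 genes of widest gap in the other direction were dim in cngc19. AT3G29110, of the terpene synthases, which make volatile and defensive terpenes, had 66.8, 180 and 43.0 in Col-0 and 9.00, 9.57 and 1.80 in cngc19. AT5G58980, a neutral ceramidase, had 39.1, 280 and 468 against 10.9, 5.96 and 10.8. AT1G65370 had 83.2, 126 and 367 against 29.5, 26.5 and 24.3, and AT1G51270 had 64.9, 262 and 62.5 against 11.9, 25.8 and 19.3. For all 4 the cngc19 arrays lay together at the bottom of the range, replicate 3 with the others. In cngc1-3, AT3G29110 had 6.23, 5.31 and 29.7 and AT5G58980 had 1.45, 14.0 and 41.1. AT1G65370 had 31.7, 21.7 and 79.7 there and AT1G51270 had 14.3, 28.6 and 30.5, so low levels were not found in cngc19 alone. Fold changes were -2.13 ± 0.54, -1.96, -1.88 and -1.71 for AT3G29110 and -2.99 ± 0.75, -3.03, -1.13 and -1.18 for AT5G58980. They were -2.04 ± 0.56, -2.0, -1.21 and -1.17 for AT1G65370 and -1.81 ± 0.56, -1.82, -1.23 and -1.24 for AT1G51270. For AT1G48220, AT1G31750, AT5G35300, AT2G36630, AT2G32340, AT2G16960, AT3G29140 and AT3G42910 all cngc19 signals were at 11.5 or less, where the added 16 sets most of the logarithm. The fold changes of these 8 were -1.36 to -2.19 with all 6 arrays, -1.31 to -2.17 without cngc19 replicate 3, -0.87 to -1.24 against Col-0 replicate 1 alone and -0.88 to -1.23 in the last comparison. None of the 12 was called in any of the 4 comparisons.

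**Figure D2:**
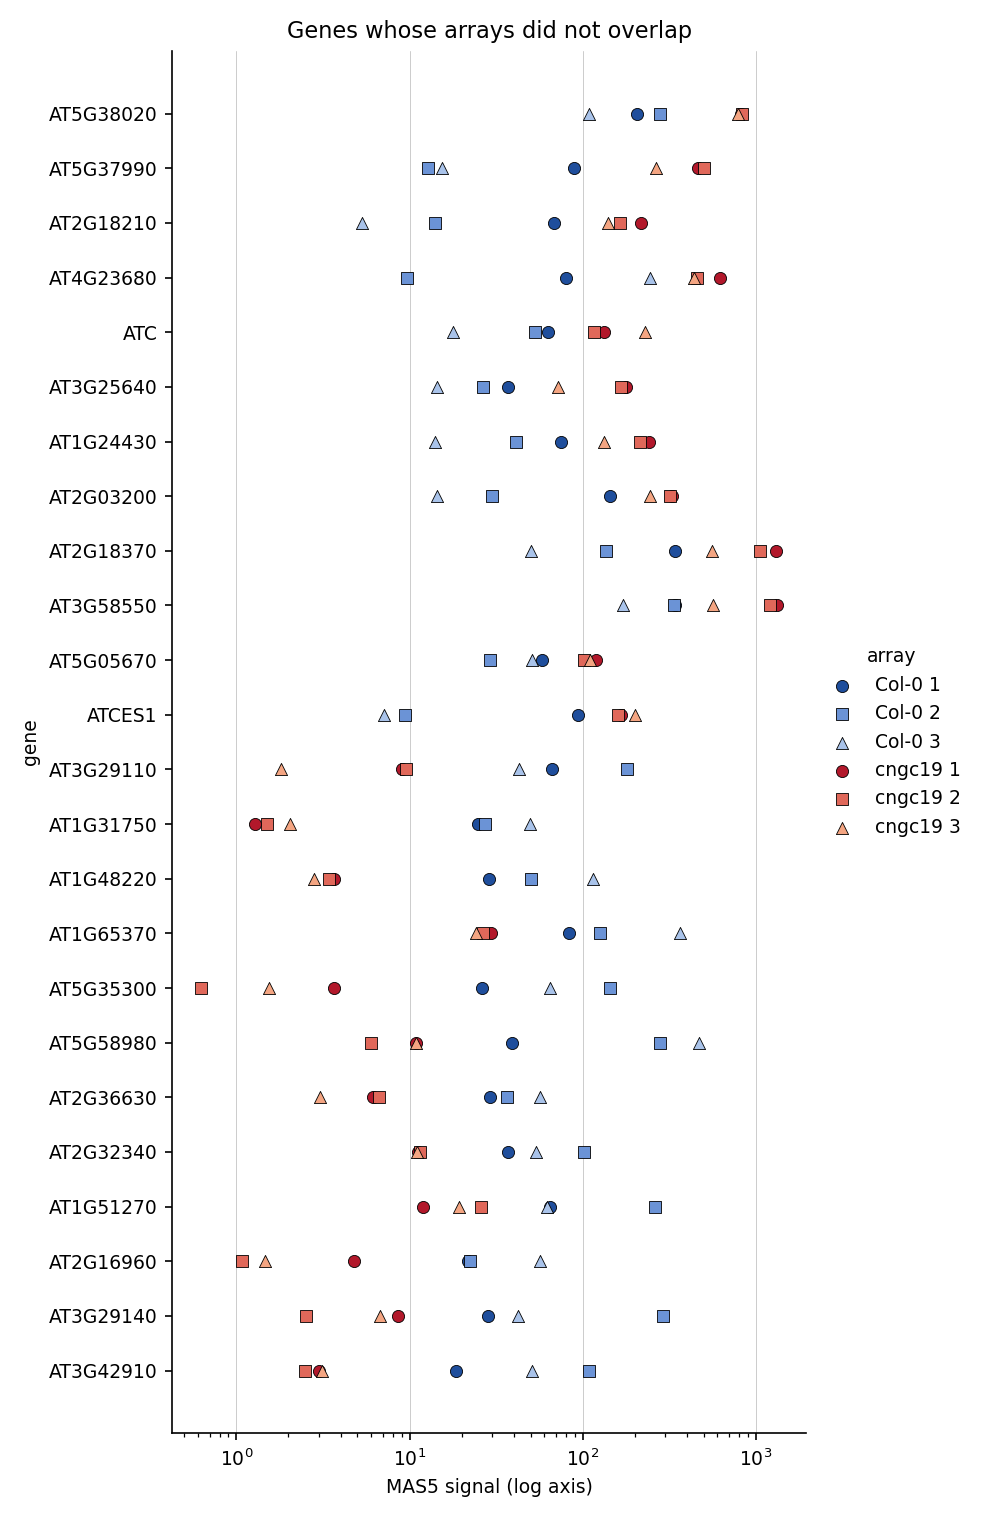
MAS5 signal (log axis) of the 12 genes of widest gap above and the 12 below, with Col-0 arrays in blue and cngc19 arrays in red; circles, squares and triangles are replicates 1, 2 and 3. The genes higher in cngc19 reach signals of 102 and more on cngc19 replicates 1 and 2, and of those lower AT1G65370 alone stays above 20 on all 3 cngc19 arrays.

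Of the 7 probe sets called without cngc19 replicate 3, 5 have a gene name, and on these replicate 3 did not share the level of the other cngc19 arrays. ICL, isocitrate lyase of the glyoxylate cycle that turns fatty acid carbon into sugar precursors, had 13.01, 22.4 and 10.4 in Col-0 and 381, 412 and 3.77 in cngc19. GSTU25, a tau-class glutathione S-transferase that conjugates glutathione to reactive compounds, had 46.5, 16.7 and 31.7 against 651, 619 and 36.3. AT5G64120, a class III peroxidase of the apoplast, had 50.2, 14.4 and 5.78 against 1071, 1108 and 30.4. On each of these genes cngc19 replicate 3 lay within or below the range of Col-0. Without that array the fold changes were 3.74 ± 0.46 for ICL, 3.82 ± 0.46 for GSTU25 and 4.97 ± 0.63 for AT5G64120 (limma, adjusted p = 0.0461 for each). With all 6 arrays they were 2.28 ± 0.95, 2.61 ± 0.81 and 3.45 ± 1.03, and none passed. Against Col-0 replicate 1 alone they were 2.37 ± 1.48, 2.17 ± 1.23 and 2.54 ± 1.60, and none passed there. In the last comparison they were 3.83 ± 0.32, 3.38 ± 0.27 and 4.06 ± 0.57, and all 3 were called (limma, adjusted p = 0.00292, 0.00287 and 0.0169).

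AT3G57020, of the strictosidine synthase-like family, and AT2G41380, of the methyltransferases that use S-adenosylmethionine, behaved alike. AT3G57020 had 8.95, 44.7 and 84.4 in Col-0 and 1688, 1647 and 17.8 in cngc19. AT2G41380 had 5.02, 8.58 and 3.68 in Col-0 and 586, 561 and 12.3 in cngc19. Only AT2G41380 of the 5 had cngc19 replicate 3 above the Col-0 arrays, by a signal difference of a few units. Without that array the fold changes were 4.98 ± 0.65 (limma, adjusted p = 0.0477) and 4.77 ± 0.41 (adjusted p = 0.00678). Over all 6 arrays they were 3.1 ± 1.22 and 3.31 ± 0.93, and against Col-0 replicate 1 alone 4.20 ± 1.88 and 3.35 ± 1.47, with neither called. In the last comparison they were 6.08 ± 0.25 and 4.81 ± 0.27, and both were called (limma, adjusted p = 0.00042 and 0.00156). The other 2 of the 7 called probe sets have no gene name here. In cngc1-3, whose comparison would share these Col-0 arrays, AT3G57020 had 1695, 1670 and 1692 and AT2G41380 had 268, 325 and 280. GSTU25 had 499, 528 and 637 there and AT5G64120 had 716, 1202 and 381, while ICL had 54.7, 59.0 and 82.0, below cngc19 replicates 1 and 2.

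The 539 probe sets called between cngc19 replicates 1 and 2 and Col-0 replicate 1 show how far replicate 3 departed from them. On 495 of the 539, cngc19 replicate 3 lay nearer to Col-0 replicate 1 than to the mean of the other cngc19 arrays, a share of 91.8%, against 64.9% of all probe sets. For the 214 called higher, the median difference from Col-0 replicate 1 was 2.32 log2 units for cngc19 replicates 1 and 2 and 0.08 for replicate 3. For the 325 called lower these medians were -2.10 and -0.14. All 3 cngc19 arrays lay beyond Col-0 replicate 1 on the called side for 124 of the 214 and 186 of the 325, and beyond all 3 Col-0 arrays for 23 and 25. These calls were made on replicates 1 and 2, so the counts describe replicate 3 and test nothing.

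**Figure D3:**
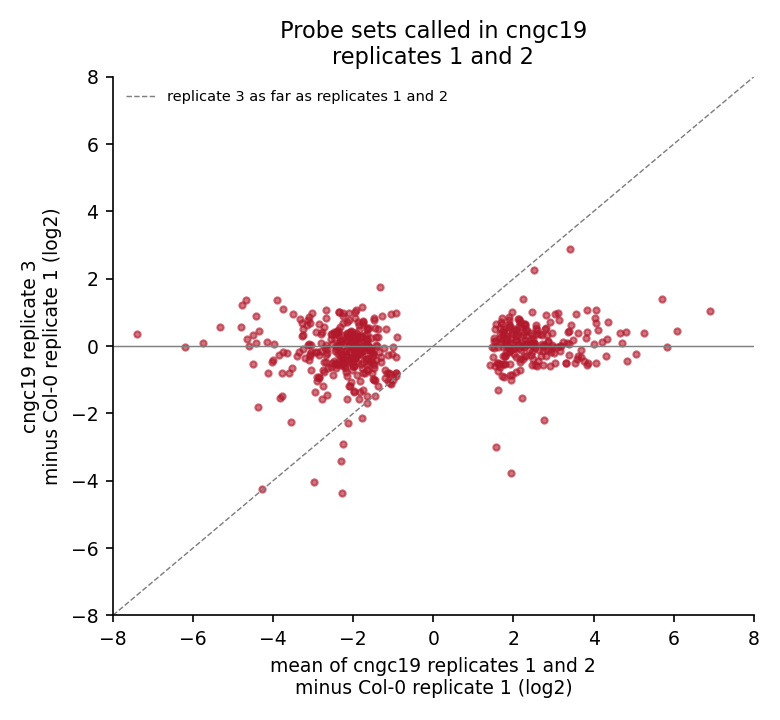
Each point is 1 of the 539 probe sets called between cngc19 replicates 1 and 2 and Col-0 replicate 1, with the mean difference of those replicates on the x axis and the difference of cngc19 replicate 3 on the y axis, both from Col-0 replicate 1 in log2 units. Points lie along the horizontal line at 0, with medians of 0.08 and -0.14, rather than along the dashed line on which replicate 3 would equal the others.

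Against Col-0 replicate 1 alone, some genes kept all 3 cngc19 arrays on one side by a wide gap. AT2G16005, of the ML lipid-recognition domain family, had 37.7 on Col-0 replicate 1 and 542, 622 and 119 in cngc19, and fold changes of 2.46 ± 0.82, 3.18, 2.76 and 3.47. AT4G33550, of the lipid-transfer family, had 50.9 against 207, 180 and 187, and fold changes of 0.91 ± 0.47, 0.93, 1.63 and 1.64. SWEET11, a sucrose exporter, had 40.1 against 131, 118 and 129, and 414 and 274 on Col-0 replicates 2 and 3. The fold changes of SWEET11 were -0.43 ± 0.63, -0.45, 1.34 and 1.32, so their sign depended on which Col-0 arrays were used.

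In the other direction 2 immune receptor genes of the NB-LRR class had wide gaps. AT3G46730 had 65.7, 118 and 13.8 in Col-0 and 0.539, 5.22 and 0.874 in cngc19, and AT4G16920 had 114, 8.58 and 5.40 against 10.2, 11.8 and 1.32. AT3G46730 lay below all Col-0 arrays, with fold changes of -1.93 ± 0.51, -1.88, -2.18 and -2.13, and AT4G16920 overlapped with Col-0 replicates 2 and 3, with -0.81 ± 0.62, -0.60, -2.48 and -2.27. Both were called in the last comparison (limma, adjusted p = 0.0168 and 0.0276). AT1G67865 had 490, 109 and 219 against 19.9, 0.530 and 127, with fold changes of -2.48 ± 0.75, -3.33, -3.52 and -4.38, and it too was called there (limma, adjusted p = 0.0074). AT1G12010, an ACC oxidase-like gene of the family that makes ethylene, had 694 on Col-0 replicate 1 and 169, 191 and 223 in cngc19, but 17.6 and 50.6 on the other Col-0 arrays, so its fold changes were 0.84 ± 0.86, 0.75, -1.76 and -1.86.

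Gene groups were then examined by function, each as its measured genes with 1 probe set per gene. Of 29 lists, 20 had 5 or more measured genes, and the other 9 had 0 to 3 and are not described. Some lists were dim: cation channels, cytochrome P450, auxin, SABATH methyltransferases, terpene synthases, and suberin, lignin and flavonoids. Their median signals were 16.7 or less on Col-0 replicate 1 and on every cngc19 array. No member of any list passed the test with all 6 arrays or against Col-0 replicate 1 alone. Counts of members called below therefore refer to the comparisons without cngc19 replicate 3, where 0.0308% of all probe sets were called higher, or to the last one, with 0.941% higher and 1.43% lower. The median of all probe sets was -0.08 under quantile normalization and 0.06 under median centring, and the median of a list with all 6 arrays turned from below to above 0 for the cell wall, metal homeostasis, cold and drought, and calcium sensor lists under quantile normalization and median centring. It did so under median centring also for the ER body and the suberin, lignin and flavonoid lists.

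**Figure D4:**
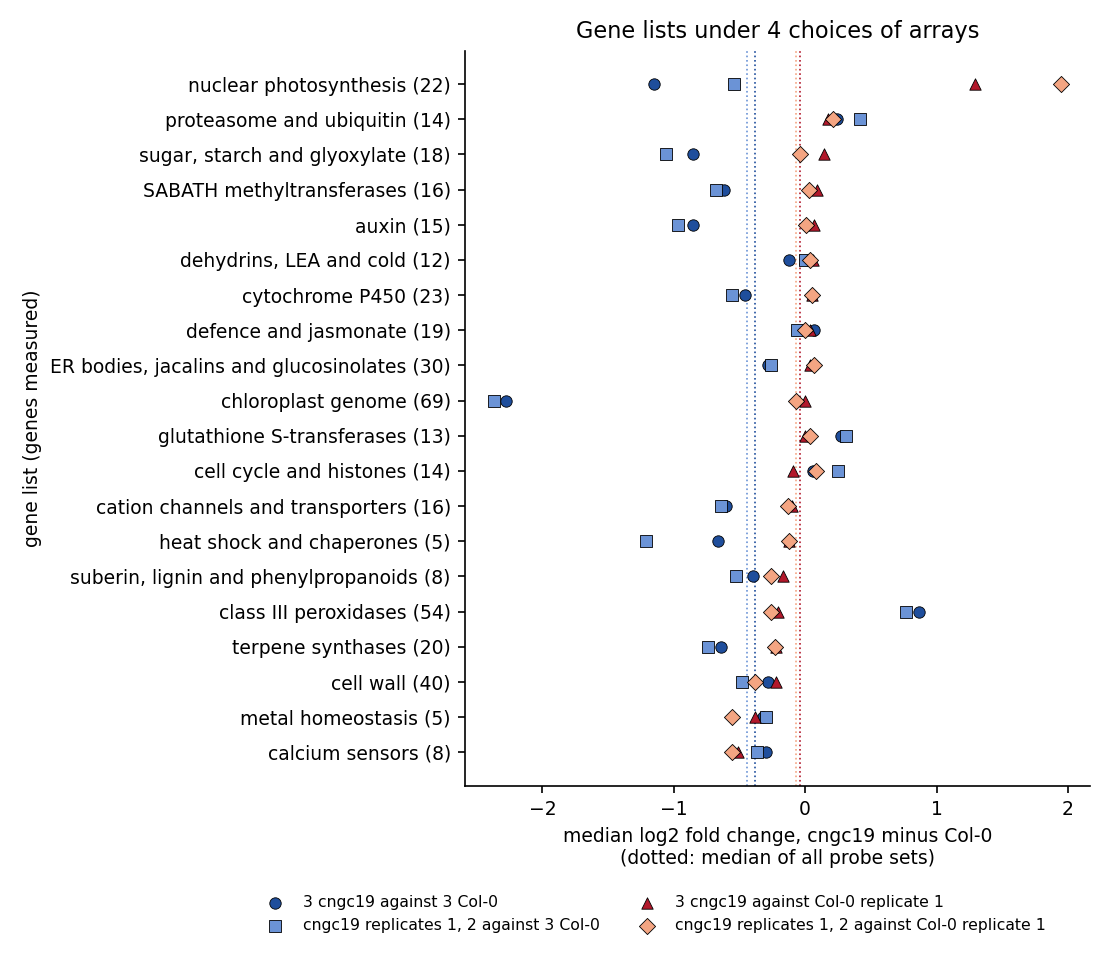
Median log2 fold change of each gene list (number of genes in brackets) in the 4 comparisons; dotted lines are the medians of all probe sets in the same colours. Chloroplast genome genes lie at -2.28 with all 6 arrays and at 0.00 against Col-0 replicate 1 alone, and class III peroxidases change from 0.87 to -0.21.

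Cation transport proteins and calcium sensors are the genes nearest to the channel's own function. On the list of cation channels and transporters, which leaves out the metal transporters described below, no gene was called in any comparison. The 16 measured genes were glutamate receptor-like channels, which let calcium through membranes, cation/proton exchangers of the CHX family and the related AT1G53210. Of these 16, 13 were lower with all 6 arrays, 14 without cngc19 replicate 3, 13 against Col-0 replicate 1 alone and 12 in the last comparison, with medians of -0.60, -0.64, -0.10 and -0.13. The median signal of the list was 14.1, 64.1 and 16.2 in Col-0 and 10.7, 6.31 and 16.4 in cngc19. At such low signals the added 16 sets much of the logarithm, and the filter on mean signal at the 40th percentile kept 5 of the 16. In 3 of the 16 all cngc19 arrays lay below all Col-0 arrays and in 0 above, where all probe sets gave 11.9% and 4.66%. Of these, GLR2.7 and chx28 were at 2.27 and 2.17 on Col-0 replicate 1 and at 1.23 or less in cngc19. The other was GLR2.8, with 13.1, 284 and 69.2 in Col-0 and 10.1, 5.41 and 7.33 in cngc19. Its low Col-0 array was replicate 1, and the fold changes were -1.94 ± 0.69, -1.94, -0.31 and -0.30. GLR3.3, the channel of wound-induced calcium waves, had 47.5, 40.04 and 18.5 against 28.3, 27.2 and 72.2, and CHX16 had 22.6, 12.7 and 11.6 against 43.9, 58.5 and 17.4. Both overlapped between the lines, with fold changes of 0.15 ± 0.49, -0.19, -0.20 and -0.54 for GLR3.3 and 0.76 ± 0.47, 1.1, 0.46 and 0.79 for CHX16. AT1G53210 had 1311, 303 and 2170 against 1052, 918 and 1244 and overlapped as well, with 0.15 ± 0.82, 0.03, -0.30 and -0.41.

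Of 8 calmodulin-like calcium sensors, 5 were lower with all 6 arrays and 6 against Col-0 replicate 1 alone, with medians of -0.30, -0.37, -0.51 and -0.56. CML42, which is known from leaves as a regulator of herbivore defence and hair branching, had 188, 8.01 and 115 in Col-0 and 301, 202 and 294 in cngc19. Its cngc19 arrays were all brighter than Col-0, with fold changes of 1.69 ± 0.67, 1.61, 0.45 and 0.37. CML41 had 44.1, 189 and 38.0 against 20.6, 21.5 and 41.0, with -1.03 ± 0.56, -1.24, -0.49 and -0.70. The member called lower in the last comparison was CML23, chosen after its values were seen, with 238 on Col-0 replicate 1, 21.9 and 17.1 on cngc19 replicates 1 and 2 and 119 on replicate 3 (limma, fold change -2.84 ± 0.33, adjusted p = 0.00875). On Col-0 replicates 2 and 3 CML23 was at 5.73 and 2.56, and its 4 fold changes were 0.24 ± 0.91, -0.40, -2.20 and -2.84.

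Of 5 metal homeostasis genes, 2 were higher and 3 lower in each of the 4 comparisons. ZIP9, of the zinc and iron transporters, had 65.6, 137 and 55.5 in Col-0 and 12.01, 11.8 and 43.8 in cngc19, below Col-0 on every array. Its fold change was -1.42 ± 0.50, -1.79, -1.18 and -1.55, and it was called in the last comparison (limma, adjusted p = 0.0435). ZIP6 had 110, 232 and 44.1 against 24.4, 28.9 and 111, and MTP11, a manganese transporter, had 132, 12.8 and 123 against 497, 481 and 131. On ZIP6 and MTP11 cngc19 replicate 3 had the level of Col-0 replicate 1, with fold changes of -1.01 ± 0.60, -1.53, -1.04 and -1.56 for ZIP6 and 1.99 ± 0.69, 2.59, 1.17 and 1.77 for MTP11.

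The 54 class III peroxidases, which use hydrogen peroxide in the wall to cross-link lignin and proteins and to release its oxygen radicals, were followed as a family. With all 6 arrays 33 were higher and 21 lower, and against Col-0 replicate 1 alone 22 were higher and 32 lower, so the medians went from 0.87 and 0.77 to -0.21 and -0.26. In 7 of the 54 all cngc19 arrays lay above all Col-0 arrays and in 2 below, where all probe sets gave 4.66% and 11.9%. AT1G68850 had 209, 7.25 and 33.9 in Col-0 and 352, 349 and 302 in cngc19. AT2G35380 had 184, 42.1 and 2.32 against 281, 327 and 207, and AT4G08780 had 282, 21.6 and 38.1 against 366, 293 and 571. For all 3 the highest Col-0 array was replicate 1, and the fold changes were 2.45 ± 0.67, 2.52, 0.64 and 0.71 for AT1G68850 and 2.25 ± 0.69, 2.42, 0.50 and 0.67 for AT2G35380. For AT4G08780 they were 2.28 ± 0.68, 2.02, 0.46 and 0.21.

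Members of the family differed in opposite directions between cngc19 replicates 1 and 2 and Col-0 replicate 1, with 2 called higher and 4 lower. Those higher were AT5G64120, above, and AT4G36430, with 334, 250 and 131 in Col-0 and 1248, 1105 and 483 in cngc19. AT4G36430 lay above Col-0 on every cngc19 array, with fold changes of 1.90 ± 0.60, 2.32, 1.35 and 1.77 (limma, adjusted p = 0.0305 in the last). Among those lower, AT3G03670 had 1494, 147 and 4.72 in Col-0 and 1.38, 8.48 and 1460 in cngc19. Its fold changes were -1.01 ± 1.64, -3.06, -4.14 and -6.19, with an SE of 0.36 in the last comparison (limma, adjusted p = 0.00156). AT3G03670 was thus at 1494 and 1460 on Col-0 replicate 1 and cngc19 replicate 3 and at 147 or less on the other 4 arrays. In cngc1-3 it had 17.4, 12.5 and 16.2. The others called lower were AT5G19890, AT1G49570 and AT2G41480. AT5G19890 had 652, 237 and 39.4 in Col-0 and 45.5, 61.7 and 1055 in cngc19, with fold changes of -0.29 ± 1.07, -1.61, -1.95 and -3.27 (limma, adjusted p = 0.0263 in the last). AT1G49570 had 227, 292 and 27.1 against 20.9, 23.3 and 493, with -0.71 ± 0.98, -1.96, -1.43 and -2.68 (adjusted p = 0.0255). AT2G41480 had 613, 78.3 and 50.4 against 128, 94.8 and 910, with 0.63 ± 0.90, -0.32, -1.36 and -2.32 (adjusted p = 0.038). On all 3, cngc19 replicate 3 was the brightest of the 6 arrays. AT4G36430 and the 4 called lower were chosen after their values were seen.

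Of 13 glutathione S-transferases, 8 were higher with all 6 arrays and 7 in each of the other comparisons, with medians of 0.27, 0.31, 0.00 and 0.04. GSTU25, described above, was the member called without cngc19 replicate 3. GSTU22 had 284, 25.4 and 58.2 in Col-0 and 643, 571 and 204 in cngc19, with replicate 3 below Col-0 replicate 1. Its fold change was 2.18 ± 0.70, 2.67, 0.55 and 1.05, and it was not called. In the last comparison 1 member was called lower, GSTU28, chosen after its values were seen. GSTU28 had 292, 73.3 and 40.6 in Col-0 and 69.6, 56.0 and 187 in cngc19, with fold changes of -0.11 ± 0.62, -0.56, -1.52 and -1.97 (limma, adjusted p = 0.0283 in the last).

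Of 23 cytochrome P450 genes, mostly CYP71B monooxygenases of secondary metabolism, 18 were lower with all 6 arrays and 17 were higher against Col-0 replicate 1 alone, with medians of -0.46, -0.56, 0.05 and 0.05. CYP71B37 lay above all Col-0 arrays, with 91.9, 47.4 and 14.5 against 187, 171 and 111. CYP71B22 lay below them, with 15.0, 309 and 32.4 against 6.69, 2.83 and 3.01. Fold changes were 1.51 ± 0.49, 1.72, 0.65 and 0.85 for CYP71B37 and -1.97 ± 0.71, -1.93, -0.63 and -0.59 for CYP71B22. No P450 gene was called.

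Wall genes differed among themselves, and their share of lower members lay below that of all probe sets with all 6 arrays and above it against Col-0 replicate 1 alone. Of 40 genes for expansins, xyloglucan and pectin enzymes and cellulose synthase-like proteins, 23 were lower with all 6 arrays, 23 without cngc19 replicate 3, 27 against Col-0 replicate 1 alone and 29 in the last comparison, with medians of -0.28, -0.48, -0.22 and -0.38. CSLC04, a glucan synthase of xyloglucan, had 212, 252 and 141 in Col-0 and 104, 91.2 and 82.8 in cngc19, so the lines did not overlap. Its fold change was -0.97 ± 0.38, -0.91, -1.07 and -1.01, nearly the same whichever arrays were used, and it was called in none. PME61, a pectin methylesterase, had 23.8, 144 and 70.3 against 7.58, 11.4 and 16.8, with -1.56 ± 0.52, -1.69, -0.52 and -0.65. XTH32, a xyloglucan-modifying enzyme, was called higher in the last comparison, with 64.4, 157 and 132 against 273, 261 and 76.2 (limma, 1.81 ± 0.27, adjusted p = 0.0219); its 4 fold changes were 0.62 ± 0.51, 1.16, 1.28 and 1.81. XTH16, another of these enzymes, was called lower there, with 189, 216 and 75.9 against 36.8, 32.6 and 243 and fold changes of -0.91 ± 0.64, -1.69, -1.23 and -2.02 (adjusted p = 0.0358 in the last). Both were chosen after their values were seen.

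Of 8 genes of suberin, lignin and flavonoids, 5 were lower with all 6 arrays and 6 against Col-0 replicate 1 alone, with medians of -0.40, -0.53, -0.17 and -0.26. CHIL, a chalcone isomerase-like protein that assists flavonoid synthesis, had 2.86, 31.3 and 48.7 in Col-0 and 381, 351 and 6.03 in cngc19. It was called in the last comparison, with fold changes of 1.93 ± 0.94, 3.3, 2.97 and 4.34 (limma, adjusted p = 0.00287 in the last), and cngc19 replicate 3 was as dim as Col-0. DFR and UF3GT, later enzymes of anthocyanin synthesis, had 21.3, 168 and 211 against 15.7, 15.99 and 20.7, and 22.4, 190 and 88.5 against 5.55, 6.13 and 11.8. Both lay below Col-0 on every array, DFR by less than 1 signal unit at the nearest arrays, with -1.80 ± 0.65, -1.86, -0.16 and -0.23 for DFR and -1.99 ± 0.58, -2.10, -0.70 and -0.82 for UF3GT.

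ER bodies are the β-glucosidase stores of Brassicaceae roots, and jacalin lectins form complexes with PYK10. A list of 30 held genes of both, together with many other β-glucosidases of the BGLU family and with GTR1 and GTR2. Its counts and medians are therefore not those of ER body genes alone. With all 6 arrays 19 were lower, and against Col-0 replicate 1 alone 19 were higher, with medians of -0.28, -0.26, 0.04 and 0.07. JAL22, a jacalin lectin, had 319, 38.0 and 406 in Col-0 and 1752, 1526 and 509 in cngc19. It lay above Col-0 on every array, with fold changes of 2.52 ± 0.83, 3.07, 1.75 and 2.30, and was called in the last comparison (limma, adjusted p = 0.03). JAL33, chosen after its values were seen, was called there too (1.94 ± 0.28, adjusted p = 0.0195), with 1319, 256 and 290 against 5352, 4880 and 81.4 and fold changes of 1.51 ± 1.41, 3.41, 0.04 and 1.94. On JAL33 cngc19 replicate 3 was the lowest of the 6 arrays. NAI2, a structural protein of ER bodies, had 785, 16.7 and 91.0 against 2015, 2056 and 197 and was not called, with 2.77 ± 1.15, 3.86, 0.27 and 1.36. PYK10 itself had fold changes of 2.44 ± 1.35, 2.57, 0.03 and 0.15, and EXPA7 had -0.46 ± 0.70, -0.64, -0.99 and -1.17.

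Of 19 defence and jasmonate genes, 10 were higher and 9 lower with all 6 arrays, with medians of 0.07, -0.06, 0.04 and 0.00. In the last comparison 2 were called higher and 2 lower. ChiC, a chitinase that attacks fungal walls, had 77.7, 30.4 and 32.0 in Col-0 and 604, 580 and 60.3 in cngc19 and fold changes of 2.36 ± 0.72, 3.36, 1.70 and 2.70 (limma, adjusted p = 0.0138 in the last). PDF2.1, a defensin, had 99.8, 9.34 and 80.0 against 524, 450 and 104 and 2.25 ± 0.69, 2.94, 1.43 and 2.11 (adjusted p = 0.0413). PR-1-LIKE had 108, 10.7 and 6.44 against 579, 509 and 38.8 and was not called, with 2.62 ± 0.93, 3.73, 1.05 and 2.17. On these 3 genes cngc19 replicates 1 and 2 lay above every Col-0 array, and replicate 3 did so only on PDF2.1. The 2 called lower, both chosen after their values were seen, were CHI and WRKY53. CHI, a chitinase, had 604, 12.9 and 56.5 against 214, 199 and 378, with 1.3 ± 0.86, 1.03, -1.20 and -1.48 (limma, adjusted p = 0.0359 in the last). WRKY53, a transcription factor of leaf senescence and defence, had 102, 113 and 5.24 against 17.9, 11.9 and 88.2, with -0.57 ± 0.73, -1.15, -1.35 and -1.94 (adjusted p = 0.0385).

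The 16 SABATH methyltransferases, of which JMT also stands among the jasmonate genes, differed among themselves. With all 6 arrays 13 were lower, and against Col-0 replicate 1 alone 11 were higher, with medians of -0.62, -0.68, 0.09 and 0.03. AT5G38020 and AT5G37990, above, were the only 2 with all cngc19 arrays above Col-0, where all probe sets gave 4.66%. AT3G44840 lay below, with 34.6, 31.0 and 33.9 in Col-0, even levels across the wild type, and 2.20, 1.03 and 12.9 in cngc19. At such low cngc19 signals the added 16 sets most of the logarithm of AT3G44840. Its fold change was -1.24 ± 0.35, -1.48, -1.28 and -1.52 (limma, adjusted p = 0.0428 in the last). AT1G68040 had 83.2, 432 and 50.1 against 11.3, 2.91 and 58.9 and fold changes of -2.08 ± 0.73, -2.66, -1.55 and -2.13, and it was called there as well (adjusted p = 0.0422).

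Of 20 terpene synthases, 12 were lower with all 6 arrays, 16 without cngc19 replicate 3, 13 against Col-0 replicate 1 alone and 14 in the last comparison, with medians of -0.64, -0.74, -0.22 and -0.23. AT3G29110 was described above. AT3G32030 had 353, 18.9 and 8.53 in Col-0 and 44.5, 31.1 and 108 in cngc19, and its probe set is of a type that can match similar sequences. AT3G29410, chosen after its values were seen, had 1336, 119 and 11.3 against 29.8, 44.6 and 3456. AT3G29410 was thus at 1336 and 3456 on Col-0 replicate 1 and cngc19 replicate 3 and at 119 or less on the rest. Both were called lower in the last comparison, by -2.79 ± 0.32 (limma, adjusted p = 0.00864) and -4.68 ± 0.32 (adjusted p = 0.00157). Their 4 fold changes were 0.05 ± 0.85, -0.35, -2.39 and -2.79 for AT3G32030 and 0.32 ± 1.56, -1.70, -2.67 and -4.68 for AT3G29410. TPS-CIN, a cineole synthase gene with a near-identical tandem copy, was called higher there, with 3.12, 66.3 and 37.4 against 112, 88.7 and 8.37 and fold changes of 0.65 ± 0.72, 1.40, 1.85 and 2.60 (adjusted p = 0.03 in the last); it was chosen after its values were seen.

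Photosynthesis genes of the nucleus were mostly higher in cngc19 than on Col-0 replicate 1, and mostly lower than the mean of all Col-0 arrays. Of 22 genes, 16 had all 3 cngc19 arrays above Col-0 replicate 1 and 0 had all below, where all probe sets gave 20.4% and 25.7%. Against that array alone 21 were higher, with a median of 1.29, and in the last comparison 22 were higher, 8 of them called, with a median of 1.95. Over all 6 arrays 20 were lower, with a median of -1.15, and without cngc19 replicate 3 it was -0.54. RCA, the activase of the carbon-fixing enzyme Rubisco, had 31.2, 259 and 1171 in Col-0 and 235, 210 and 32.8 in cngc19. PORB, an enzyme of chlorophyll synthesis, had 17.8, 13.7 and 2632 against 117, 111 and 23.6. Col-0 replicate 3 was far above the rest for both, and the order of the other arrays differed between RCA and PORB.

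LHCB4.1, an antenna protein of photosystem II, had 36.8, 19.9 and 5551 in Col-0 and 307, 281 and 60.6 in cngc19, and PSAE-1, a subunit of photosystem I, had 13.8, 16.5 and 7052 against 347, 296 and 17.6. Both were chosen after their values were seen. In the last comparison the 4 genes were called, at 2.34 ± 0.29, 1.94 ± 0.30, 2.55 ± 0.28 and 3.50 ± 0.52 (limma, adjusted p = 0.0118, 0.0228, 0.00722 and 0.0214). Over the 4 comparisons RCA had -0.83 ± 0.97, -0.06, 1.57 and 2.34, and PORB had -0.66 ± 1.34, -0.09, 1.37 and 1.94. LHCB4.1 had -0.17 ± 1.47, 0.50, 1.88 and 2.55, and PSAE-1 had -0.28 ± 1.71, 0.82, 2.39 and 3.50. For all 4 the sign with all 6 arrays was opposite to that against Col-0 replicate 1 alone. In cngc1-3, RCA had 83.8, 95.7 and 105 and LHCB4.1 had 206, 205 and 164. AT4G38100, a protein that curves thylakoid membranes, was the member above all Col-0 arrays, with 61.2, 17.3 and 38.7 against 95.4, 103 and 72.9 and fold changes of 1.02 ± 0.44, 1.15, 0.45 and 0.58.

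The 69 genes of the chloroplast genome were mostly lower with all 6 arrays and evenly divided against Col-0 replicate 1. With all 6 arrays 66 were lower, with a median of -2.28, and without cngc19 replicate 3 65 were lower, with a median of -2.37. Against Col-0 replicate 1 alone 34 were higher and 35 lower, with medians of 0.00 and, in the last comparison, -0.07. Their median signal was 60.6, 247 and 2884 in Col-0 and 34.6, 57.6 and 68.5 in cngc19, so the difference lay with Col-0 replicates 2 and 3. atpH, of the ATP synthase, had 15.8, 5345 and 6712 in Col-0 and 7.96, 7.77 and 33.2 in cngc19, with fold changes of -5.11 ± 1.54, -5.46, -0.07 and -0.41. In 8 of the 69, ndhH among them with 8.46, 123 and 399 against 1.06, 1.49 and 0.971, all cngc19 arrays lay below Col-0, where all probe sets gave 11.9%. The fold changes of ndhH were -2.71 ± 0.78, -2.70, -0.51 and -0.50. None of the 69 was called in any of the 4 comparisons.

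Cold and drought proteins split by gene. Of 12, 7 were lower with all 6 arrays and 7 higher against Col-0 replicate 1 alone, with medians of -0.12, 0.00, 0.06 and 0.04. LTI30, a dehydrin that guards membranes in cold and drought, had 447, 9.17 and 122 in Col-0 and 1837, 1750 and 237 in cngc19. It was called in the last comparison (limma, 1.96 ± 0.36, adjusted p = 0.0394), its 4 fold changes were 3.00 ± 1.03, 3.95, 1.02 and 1.96, and cngc19 replicate 3 lay below Col-0 replicate 1. COR15A, a cold-induced protein of the chloroplast, had 15.6, 150 and 1533 against 1.28, 5.21 and 13.2. The Col-0 arrays of COR15A spanned from 15.6 to 1533, and its fold changes were -3.19 ± 1.04, -3.39, -0.52 and -0.72.

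Of 15 auxin genes, 11 were lower with all 6 arrays and 10 higher against Col-0 replicate 1 alone, with medians of -0.85, -0.97, 0.07 and 0.01. GH3.17, which conjugates auxin to amino acids, had 536, 11.4 and 13.7 in Col-0 and 659, 625 and 499 in cngc19, so only Col-0 replicates 2 and 3 were low. IAA29, a repressor of auxin response, had 19.4, 13.7 and 184 against 8.05, 6.14 and 5.35. Fold changes were 2.99 ± 0.97, 3.1, 0.13 and 0.25 for GH3.17 and -1.40 ± 0.61, -1.37, -0.66 and -0.62 for IAA29, and neither was called. GH3.1, of the same family as GH3.17, was called lower in the last comparison, with 22.0, 9.04 and 2.38 against 1.73, 3.01 and 1.55 and fold changes of -0.52 ± 0.29, -0.50, -1.07 and -1.05 (limma, adjusted p = 0.0414 in the last). It was chosen after its values were seen.

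Of 18 genes of sugar and carbon use, mostly SWEET sugar exporters, 13 were lower with all 6 arrays and 11 higher against Col-0 replicate 1 alone, with medians of -0.85, -1.06, 0.14 and -0.04. SWEET13, a sucrose exporter, had 79.6, 243 and 106 in Col-0 and 38.7, 32.5 and 65.9 in cngc19, below Col-0 on every array, by -1.27 ± 0.50, -1.49, -0.67 and -0.89. ICL, above, was the member called without cngc19 replicate 3. In the last comparison 1 member was called lower, cwINV6, named as a cell wall invertase, chosen after its values were seen. cwINV6 had 305, 339 and 33.9 in Col-0 and 56.1, 56.9 and 516 in cngc19, with fold changes of -0.34 ± 0.85, -1.3, -1.19 and -2.15 (limma, adjusted p = 0.0193 in the last).

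Genes of protein turnover were mostly higher in all 4 comparisons. Of 14 genes for ubiquitin-conjugating enzymes and the proteasome, 10 were higher with all 6 arrays, 9 without cngc19 replicate 3, 10 against Col-0 replicate 1 alone and 12 in the last comparison, with medians of 0.24, 0.42, 0.17 and 0.21. UBC16 had 124, 37.4 and 88.9 in Col-0 and 292, 270 and 149 in cngc19, above Col-0 on every array. RPN12a, a subunit of the proteasome lid, had 620, 214 and 163 against 846, 905 and 609. Fold changes were 1.41 ± 0.49, 1.69, 0.80 and 1.09 for UBC16 and 1.41 ± 0.59, 1.58, 0.32 and 0.49 for RPN12a. None of the 14 was called.

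Of 14 cell cycle and histone genes, 8 were higher with all 6 arrays and 6 against Col-0 replicate 1 alone, with medians of 0.06, 0.25, -0.09 and 0.08. HON4, a linker histone-like protein, had 144, 189 and 297 in Col-0 and 93.2, 90.6 and 127 in cngc19, and HIS1-3, a drought-linked linker histone, had 83.5, 181 and 604 against 62.4, 68.4 and 39.0. Both lay below all Col-0 arrays and neither was called, with -0.88 ± 0.40, -1.01, -0.44 and -0.57 for HON4 and -1.69 ± 0.62, -1.50, -0.48 and -0.29 for HIS1-3. Of 5 heat shock proteins and chaperones, 4 were lower with all 6 arrays and 3 against Col-0 replicate 1 alone, with medians of -0.66, -1.21, -0.12 and -0.12. Cpn60beta2, a chaperonin of the chloroplast, had 139, 504 and 417 against 90.3, 106 and 114, with -1.46 ± 0.50, -1.52, -0.38 and -0.45. Hsp70-2, a chaperone of the HSP70 class, was called lower in the last comparison, with 291, 146 and 233 against 74.6, 94.2 and 298 and fold changes of -0.66 ± 0.51, -1.21, -1.07 and -1.62 (limma, adjusted p = 0.0494 in the last).

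**Figure D5:**
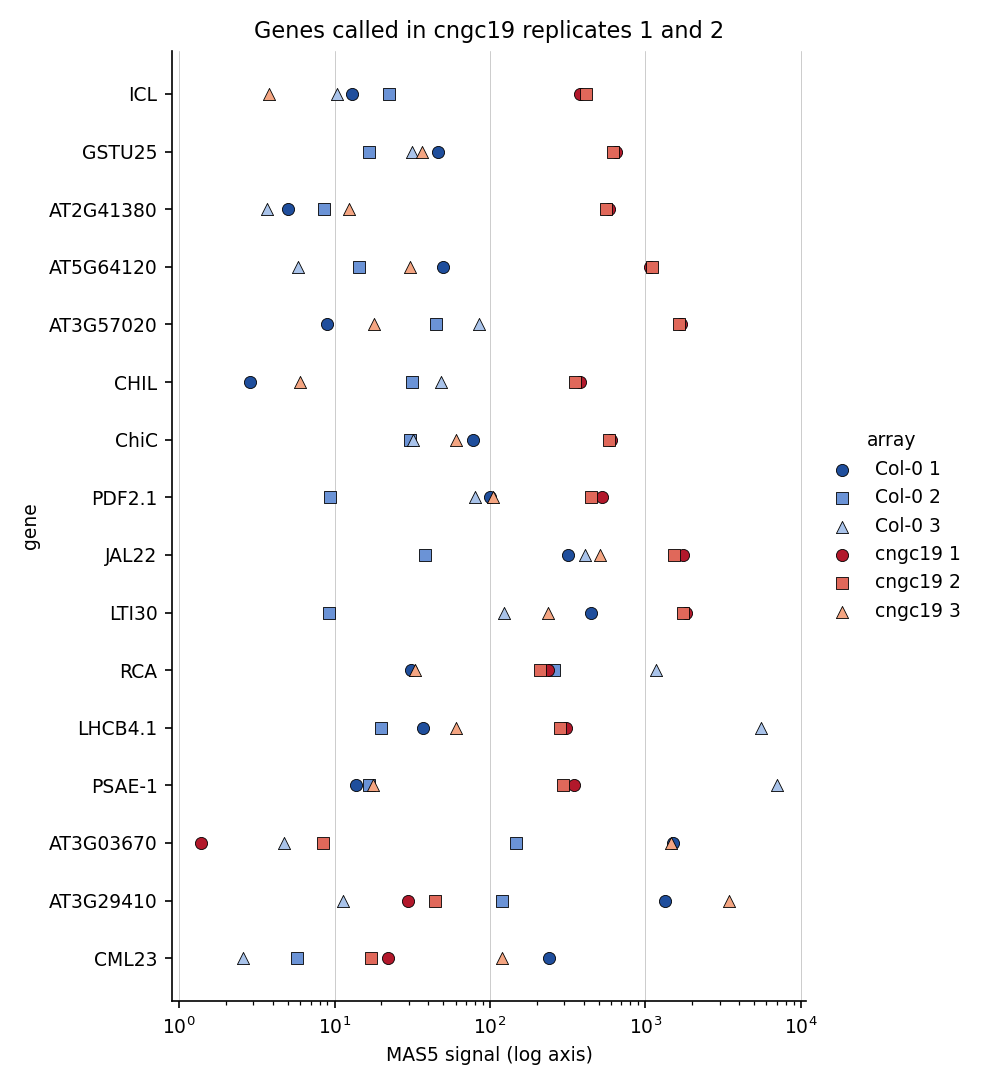
MAS5 signal (log axis) of 16 genes called without cngc19 replicate 3 or between cngc19 replicates 1 and 2 and Col-0 replicate 1; Col-0 arrays are blue, cngc19 arrays red, and circles, squares and triangles are replicates 1, 2 and 3. The 16 were picked from the called genes. On them the red triangle of cngc19 replicate 3 lies apart from the other red symbols, as on AT3G03670, with 1460 against 1.38 and 8.48. Some called genes that are not shown differ in this, such as AT4G23680, with 622, 460 and 441 on the cngc19 arrays.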

How the data were processed

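Total root RNA was measured on 9 ATH1 arrays, 3 each of Col-0, cngc1-3 and cngc19. The deposited intensities are MAS5 signals made with GCOS, per the submitters' processing notes, and were used as deposited. No genome build for the authors' processing is given in the sources used here. Of 22810 probe sets, 64 controls were left out, and 22746 were tested as log2(signal + 16), which understates changes of dim probe sets. All arrays kept in a comparison entered 1 limma 3.58.1 model in R 4.3.3 (lmFit and trended eBayes), with cngc1-3 lending spread. Tests were two-sided, and calls needed an adjusted p (Benjamini-Hochberg) under 0.05. The procedure was tested on simulated data in which all arrays had the same spread for a given gene. No simulated array stood apart from its line, so that test does not cover arrays such as Col-0 replicates 2 and 3. Tables used pandas 2.3.3 and numpy 2.4.6, and plots matplotlib 3.10.9, in Python 3.11.15. The number of arrays limits the precision.

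The platform annotation named 1 gene for 13513 probe sets, several for 503 and none here for 8730. Of the first, 13436 matched a RefSeq table (TAIR10.1, used for names and gene order), and each of 13355 genes took its brightest probe set. Named genes were up to 12 per direction with the widest gap between non-overlapping lines, up to 8 called without cngc19 replicate 3, up to 8 with the widest gap to Col-0 replicate 1, up to 4 of smallest p per list, and tissue markers and cation transport genes. The members, lists and tests were chosen with earlier results of these data known, and lists were matched by symbol, synonym or locus; family roles of genes with only a locus name are background knowledge. Alternatives were median centring, quantile normalization, pseudocounts of 1 and 64, a filter on mean signal at the 40th percentile, only the 6 arrays, the replicate number as a block, eBayes without trend, array weights, an adjusted p under 0.1 and leaving out each of the 6 arrays compared. No fit left out a single cngc1-3 array.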

Additional observations from a re-analysis of the deposited data

How the results depend on the processing

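The count of 0 probe sets called by limma with all 6 arrays (4540 at an unadjusted p under 0.05) stayed at 0 under both pseudocounts, the filter (13648 tested), quantile normalization, median centring, only the 6 arrays, eBayes without trend and an adjusted p under 0.1. Leaving out 1 of the 6 arrays compared gave 0 to 8621 calls: 8621 when Col-0 replicate 1 was left out and the wild type was the pair with raised spike-ins, 7 without cngc19 replicate 3 and 0 otherwise. Array weights gave 7867, and cngc19 replicates 1 and 2 against Col-0 replicate 1 alone gave 539. The cause was not tested. The labels name no pairing beyond the replicate number. Deviations of same-numbered arrays from their line means correlated at -0.083, -0.058 and -0.209. Arrays that stand apart from their line weigh heavily in these deviations, so the correlations cannot decide whether the samples are paired. The fit with the replicate block called 0. Quantile normalization, median centring and the filter moved the median of all probe sets from -0.38 to -0.08, 0.06 and 0.05, and the sign of a list's median changed for 4 of 20, 6 of 20 and 6 of 16 lists; against Col-0 replicate 1 alone it changed for 9 of 20.

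Of the named genes, these changed direction. Against Col-0 replicate 1 alone, and with cngc19 replicates 1 and 2 against it, fold changes were -1.76 and -1.86 for AT1G12010, -2.67 and -4.68 for AT3G29410, -0.30 and -0.41 for AT1G53210, -1.36 and -2.32 for AT2G41480, -0.05 and -0.09 for AT3G17710, -1.20 and -1.48 for CHI, -2.39 and -2.79 for AT3G32030, -2.20 and -2.84 for CML23, -0.20 and -0.54 for GLR3.3, 1.88 and 2.55 for LHCB4.1, 1.37 and 1.94 for PORB, 2.39 and 3.50 for PSAE-1, 1.57 and 2.34 for RCA, and 1.34 and 1.32 for SWEET11. Array weights gave 0.02 for AT4G16920, 0.58 for EXPA7, -0.84 for AT1G53210, -0.90 for AT3G17680, 0.14 for GSTU28, 0.05 for WRKY53 and 0.11 for cwINV6. A pseudocount of 64 gave -0.17 for AT3G32030, -0.08 for AT3G17680 and -0.05 for CML23, and a pseudocount of 1 gave 0.09 for LHCB4.1 and 0.02 for PSAE-1. Median centring gave 0.26 for LHCB4.1, 0.16 for PSAE-1, 0.01 for SWEET11, 0.15 for AT5G19890, 0.33 for GSTU28 and 0.10 for cwINV6, and quantile normalization 0.26 for LHCB4.1, 0.19 for PSAE-1, -0.18 for AT1G53210, 0.01 for AT5G19890 and 0.36 for GSTU28. Leaving out 1 array, AT1G12010 ranged from -0.06 (without Col-0 replicate 2) to 2.14 (without Col-0 replicate 1), AT3G03670 from -3.06 (without cngc19 replicate 3) to 0.56 (without Col-0 replicate 1), AT3G29410 from -1.70 (without cngc19 replicate 3) to 1.81 (without Col-0 replicate 1), and AT3G32030 and CML23 from -0.68 and -0.43 (without Col-0 replicate 3) to 1.27 and 1.46 (without Col-0 replicate 1). AT4G16920 ranged from -1.28 (without Col-0 replicate 3) to 0.02 (without Col-0 replicate 1), EXPA7 from -1.32 (without Col-0 replicate 3) to 0.13 (without Col-0 replicate 2), and GLR3.3 from -0.19 (without cngc19 replicate 3) to 0.33 (without cngc19 replicate 2). LHCB4.1 and PORB ranged from -1.48 and -1.77 (without Col-0 replicate 2) to 2.16 and 1.46 (without Col-0 replicate 3), PSAE-1 and RCA from -1.62 and -2.02 (without Col-0 replicate 1) to 2.33 and 0.30 (without Col-0 replicate 3), and SWEET11 from -1.32 (without Col-0 replicate 1) to 0.15 (without Col-0 replicate 2). AT1G53210, AT3G17680 and AT3G17710 ranged from -0.66 (without Col-0 replicate 2), -0.60 (without Col-0 replicate 2) and -0.40 (without Col-0 replicate 3) to 0.73, 0.75 (both without Col-0 replicate 3) and 0.73 (without Col-0 replicate 2). AT2G41480 and AT5G19890 ranged from -0.32 and -1.61 (without cngc19 replicate 3) to 1.63 and 0.54 (without Col-0 replicate 1), GSTU28 from -0.62 (without Col-0 replicate 3) to 0.60 (without Col-0 replicate 1), and cwINV6 from -1.30 (without cngc19 replicate 3) to 0.15 (without Col-0 replicate 2). The other named genes kept their direction in every fit that held them. The cause was not tested.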

Other observations

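Some neighbours of CNGC19 on chromosome 3 were measured. Of the 10 protein-coding genes on each side of it in the RefSeq order, 6 had a named probe set. AT3G17680, the nearest on one side, had 41.2, 12.7 and 171 in Col-0 and 65.9, 57.5 and 36.8 in cngc19. AT3G17710, 2 genes away on the other side, had 48.0, 87.8 and 5.60 in Col-0 and 45.6, 42.7 and 49.4 in cngc19. Both overlapped between the lines, with fold changes of 0.02 ± 0.63, 0.20, 0.26 and 0.44 for AT3G17680 and 0.24 ± 0.57, 0.20, -0.05 and -0.09 for AT3G17710, and none of the 6 was called in any of the 4 comparisons.

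Among the probe sets called higher between cngc19 replicates 1 and 2 and Col-0 replicate 1, AT5G57785, which is no member of any list and was chosen after its values were seen, had 1133 and 852 on the 2 cngc19 arrays, 9.74 on cngc19 replicate 3 and 19.0 on Col-0 replicate 1.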
